A study of Homo sapiens with 6 samples.

Results

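The 246 widest binding sites of the FLAG-tagged wild-type zinc finger protein ZNF335 in Jurkat cells were examined, taken as every peak of the wild-type (WT) list that spans 350 bp or more. They make up 38.8% of the 634 WT peaks (exact Clopper-Pearson 95% interval 35.0% to 42.7%). The width that chose them is a description and not a result. Chromatin was immunoprecipitated with an antibody to the FLAG tag from Jurkat T-REx cells, a T cell line of leukaemic origin in which genes under a tetracycline operator stay off until doxycycline is added. One line expressed 3xFLAG WT ZNF335, a second expressed 3xFLAG ZNF335 with the bloto substitution R1092W, and a control line expressed no tagged protein. The growth and treatment protocols describe clonal lines of stable transfectants, chosen by drug selection and a fluorescent reporter, and an overnight doxycycline treatment. The protocols describe no removal of the ZNF335 that the cells make themselves. Each condition has 1 ChIP library and 1 input library, so no difference between the lines has a replicate check, no p-value is given, and clone, library and substitution cannot be told apart.

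ZNF335, called Zfp335 in mouse, is a DNA-binding transcription factor of the C2H2 zinc finger class, in which small zinc-holding loops lie side by side and read short stretches of DNA. It has been linked to histone H3 lysine 4 methylation complexes and to brain growth, and the bloto substitution is known from mice with too few mature T cells. According to the title of the series, the study asked how different arrays of its fingers read different motifs. A ChIP peak is a stretch in which sequenced fragments pile up above the local background, and its summit is the base with the most fragments. The width reported by a peak caller is the stretch that passes its cutoff, so width depends on the height of the signal as well as on its spread. Coordinates below are on hg19 and counted from 1. No genome or annotation of that build was used here, so sites are given by position, without genes or sequence.

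The wide peaks had a median width of 569.5 bp (95% order-statistic interval 538 to 602 bp, interquartile range 452.75 to 707.25 bp) and reached 1549 bp. The 388 WT peaks under 350 bp had a median of 212 bp, and the narrowest was 146 bp. Of the wide peaks, 31 spanned 350 to 399 bp and 10 spanned 1000 bp or more. The threshold lay in a continuous stretch of widths. The members just inside it were chr6:37400857-37401206 and chr7:107384279-107384628 at 350 bp and chr19:1241614-1241966 at 353 bp, with folds of 8.25, 4.65 and 9.47 over the local background. Just outside it lay chr5:175788554-175788900 at 347 bp with a fold of 11.8, and chr6:31794734-31795079 and chr14:93260431-93260776 at 346 bp, with folds of 6.89 and 6.75. Those 3 outside had a bloto peak and the 3 inside had none, while over the steps on either side a bloto peak was present at 7 of 57 WT peaks of 300 to 349 bp and at 9 of 31 of 350 to 399 bp.

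Wide peaks were found on all 23 chromosomes with WT peaks. They ranged from 1 of 5 WT peaks on chromosome 21 to 28 of 54 on chromosome 2, where they were 51.9%, and 17 of 33 on chromosome 12, where they were 51.5%. The X chromosome had 3 wide peaks among 11. None of the 246 overlapped the single peak of the control list, at chr11:66189134-66189404.

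**Figure D1:**
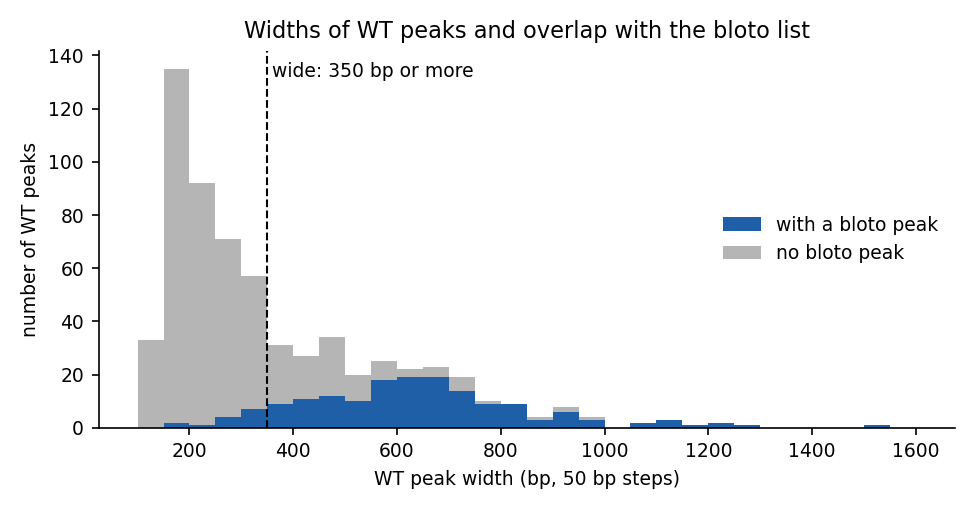
Histogram of the widths of the 634 WT peaks in bp (x axis, steps of 50 bp) against the number of peaks (y axis), stacked by whether a bloto peak overlaps by at least 1 bp; the dashed line marks 350 bp. Peaks with a bloto counterpart are 152 of 246 to the right of the line and 14 of 388 to the left.

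The widest site of all, chr11:129872276-129873824, was 1549 bp wide but had a moderate fold of 6.73 and 46 reads at its summit. Fold is the authors' ratio of ChIP signal to local background at the summit, and the reads that cover the summit were solved from that fold together with its p-value. The next, chr3:122101739-122103011, spanned 1273 bp with a fold of 7.22 and 41 reads. Both were therefore broad sites with a fold below the median of 10.5 for wide peaks. Their summit reads were close to the median of 46.5 for wide peaks. By contrast chr6:5260920-5262166 (1247 bp), chr17:47784667-47785884 (1218 bp) and chr8:74205479-74206668 (1190 bp) had folds of 19.6, 20.7 and 24.5, with 72, 76 and 65 reads. The others among the 10 widest were chr2:122512786-122513931 (fold 12.4), chr1:76250906-76252050 (8.60), chr13:39611812-39612934 (11.5), chr9:135545179-135546277 (20.9) and chr17:73201101-73202167 (19.8). The 10 widest thus ranged in fold from 6.73 to 24.5, and each had a bloto peak.

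The summits of wide peaks lay near the middle. Where 0 is the lower and 1 the upper edge, the median place of the summit was 0.49 (interquartile range 0.37 to 0.61), and 165 of 246 summits, 67.1% (exact 95% interval 60.8% to 72.9%), fell between 1/3 and 2/3 of the way along. Among WT peaks under 350 bp the same holds for 244 of 388, 62.9% (57.9% to 67.7%), so the intervals overlap. Only 2 wide peaks had the summit within 0.1 of the width from either edge, 0.813% (0.0986% to 2.91%), against 15 of the narrower peaks, 3.87% (2.18% to 6.30%). In base pairs the summit of a wide peak lay a median of 67.25 bp from the midpoint, and that of a narrower peak 25.75 bp. The place relative to width was thus similar in the wide and the narrower class, while the distance in bp was larger in the wide one.

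**Figure D2:**
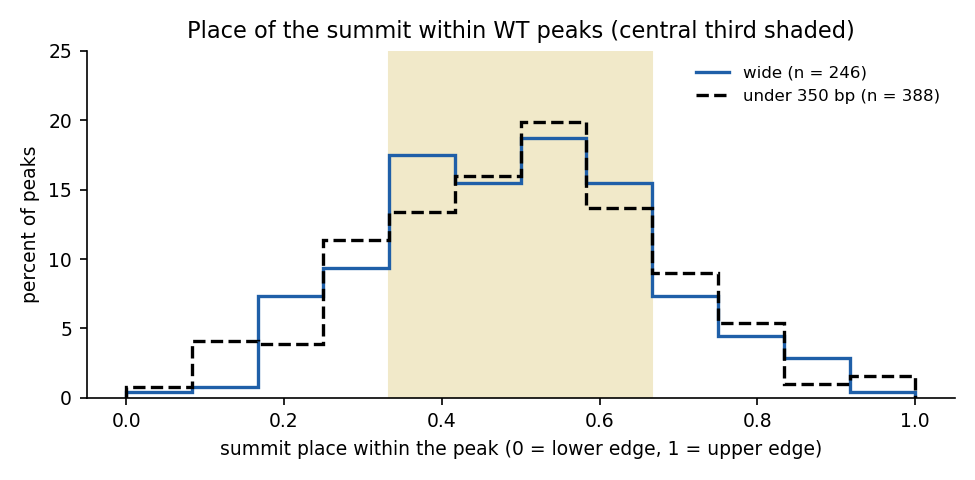
Place of the summit within the peak (x axis, 0 at the lower and 1 at the upper edge, 12 equal steps) against the percent of peaks (y axis) for the 246 wide WT peaks (solid line) and the 388 under 350 bp (dashed line), with the central part shaded. Both outlines are highest near the middle, and 67.1% of wide and 62.9% of narrower peaks fall in the shaded part.

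Most wide peaks were nonetheless uneven about their summit. The longer flank was a median of 1.63 times the shorter (95% order-statistic interval 1.53 to 1.71), with median flanks of 359 and 211 bp. In the narrower peaks this ratio was 1.64 (1.55 to 1.8). The longer flank was at least 2 times the shorter in 81 wide peaks, 32.9% (exact interval 27.1% to 39.2%), and at least 5 times in 11, 4.47% (2.25% to 7.86%). It lay on the side of higher coordinates in 125 of the 245 wide peaks with unequal flanks, 51.0% (44.6% to 57.4%), so no preferred side along the chromosome was seen. Strands of genes were not used here.

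The evenness of wide peaks went with their height. Those of fold under 5 had a median flank ratio of 2.92 (14 peaks), those of fold 10 to under 15 had 1.58 (76 peaks) and those of fold 20 or more had 1.23 (15 peaks). By reads at the summit, the median ratio was 2.49 at 20 to 29 reads (49 peaks), 1.76 at 30 to 39 (51 peaks), 1.52 at 40 to 49 (35 peaks), 1.30 at 50 to 59 (22 peaks) and 1.43 at 60 or more (87 peaks), so the order did not hold above 50 reads. Peaks under 350 bp showed a like fall, from 2.02 under 20 reads (130 peaks) to 1.58 at 20 to 29 (189 peaks) and 1.39 at 30 to 39 (54 peaks). At 40 to 49 reads it was 1.47, with only 9 peaks. A summit with few reads is placed less exactly, and the part of this in the asymmetry was not tested.

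The 5 members with the most displaced summits ranged widely in fold. At chr14:90797904-90798338 the summit lay 418 bp above the lower edge and 16 bp below the upper one, and at chr14:50234388-50234826 it lay 21 bp from the lower edge and 417 bp from the upper. These had folds of 3.01, the lowest of all wide peaks, and 3.45, the third-lowest together with an equal fold at chr18:54318360-54318786, and neither had a bloto peak. The second-lowest fold, 3.23, was at chr12:6961381-6961835, where the flanks were 77 and 377 bp. In contrast, chr8:74205479-74206668 had a fold of 24.5 and its summit 1052 bp from the lower and 137 bp from the upper edge. Its bloto peak was the widest of the bloto list at 1049 bp, with a fold of 11.4. Also strongly displaced were chr3:45634993-45635567 (fold 10.3, 29 reads, flanks 500 and 74 bp) and chr3:167453006-167453402 (fold 10.4, 27 reads, flanks 345 and 51 bp), both without a bloto peak. At the other end, chr2:223520639-223521201 had equal flanks of 281 bp, chr7:10979525-10980331 had 404 and 402 bp, and chr12:110337880-110338467 had 295 and 292 bp.

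Wide peaks were mostly solitary. The nearest other WT peak lay a median of 511.8 kb away, edge to edge (95% order-statistic interval 365.2 to 748.2 kb), close to the 477.1 kb of the narrower peaks (369.8 to 641.5 kb). The most isolated, chr4:186346657-186347281, had 32176 kb to its nearest neighbour. Only 34 wide peaks, 13.8% (exact interval 9.77% to 18.8%), had another WT peak within 1 kb, and 2 more had one between 1 and 10 kb. Among the narrower peaks 55, 14.2% (10.9% to 18.05%), had one within 1 kb. Spacing of the listed peaks therefore fell into very close pairs and distant peaks, with little in between, in the wide and the narrower class alike. Whether a close pair is 2 sites or 1 stretch split at the caller's cutoff was not tested.

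The close pairs had a common layout. The gap between the edges had a median of 128 bp (interquartile range 96.5 to 178.25 bp, range 53 to 523 bp), and in 19 of 34 cases it was under 146 bp, the width of the narrowest peak in either list. The neighbour was usually a small peak: its median width was 221 bp and its median fold 5.66, against 567 bp and 12.1 for the wide peaks beside it, and in 28 of 34 cases it had the lower fold. Over all WT peaks under 350 bp these medians were 212 bp and 6.03, close to those of the neighbours, although 6 of the 34 neighbours were themselves wide. The wide peaks were picked for width, with which fold rises, so this contrast is largely built into the choice. These 6 cases make 3 pairs of wide peaks, each counted from both sides. Each such pair thus enters with both a lower and a higher fold by construction. The summits of wide peak and neighbour lay a median of 502 bp apart (range 292 to 813 bp). The neighbour lay on the side of the longer flank in 15 of 34 cases, 44.1% (exact interval 27.2% to 62.1%). The narrowest gaps were 53 bp at chr5:133512630-133513123, 55 bp at chr19:37708646-37709337 and 77 bp at chr17:65362512-65362955. The WT peak of highest fold, chr19:3626622-3627319 with 30.7, also had such a neighbour 127 bp away, chr19:3626280-3626494, 215 bp wide with a fold of 3.89.

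Bloto peaks in these pairs lay mostly at the wide peak. A bloto peak was present at 25 of the 34 wide peaks with a close neighbour, 73.5% (exact interval 55.6% to 87.1%), but only 2 of the 34 neighbours had one, 5.88% (0.720% to 19.7%). Most of these neighbours are under 350 bp, and none of those had a bloto peak. Over all WT peaks under 350 bp the share was 3.61%, so few would have one in any case. The 2 neighbours with a bloto peak were wide themselves. They belong to the wide pairs at chr2:68383944-68384399 beside chr2:68384493-68385297, and at chr2:240963986-240964490 beside chr2:240964643-240965283. In each, the member of higher fold had the bloto peak, with WT folds of 12.7 and 13.5 against 4.96 and 9.001. The third wide pair, chr3:167452400-167452824 beside chr3:167453006-167453402, had none. No wide peak shared its bloto peak with its neighbour. The 212 wide peaks with no WT peak within 1 kb had a bloto peak in 127 cases, 59.9% (53.0% to 66.6%), an interval that overlaps that of the paired ones.

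Fold was higher at greater widths among the wide peaks, with a broad scatter. Spearman's rho was 0.46 over the 246 peaks, and 0.61 over all 634, with every point from the same library. With reads at the summit in place of fold it was 0.52. The median fold was 8.17 at 350 to 399 bp, 10.6 at 500 to 599 bp and 12.9 at 600 to 699 bp. It was 13.6 at 700 to 799 bp, 13.4 at 800 to 999 bp and 16.0 from 1000 bp (10 peaks). Below 500 bp the medians of the 3 steps of 50 bp lay between 7.56 and 8.41. Above 500 bp, with 154 peaks, rho was 0.20. The local background at the summit, on the scale of the caller, had a rho of 0.01 with width in the wide peaks. Wide peaks had a median fold of 10.5 and a median of 46.5 reads at the summit, and the narrower ones 6.03 and 22.

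The peaks of highest fold were not the widest. The first by fold, chr19:3626622-3627319 and chr19:51307615-51308312, were both 698 bp wide, with folds of 30.7 and 30.4. They were followed by chr2:231921198-231921758 (fold 25.6, 561 bp), chr11:34072689-34073426 (24.5, 738 bp) and chr8:74205479-74206668 (24.5, 1190 bp). Only the last is also among the 10 widest.

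**Figure D3:**
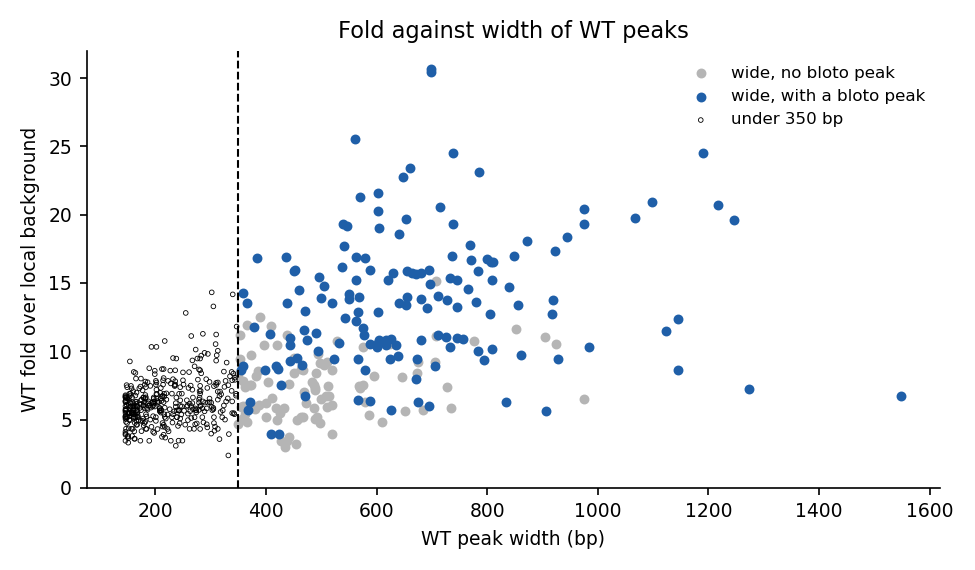
WT fold over local background (y axis) against WT peak width in bp (x axis) for single WT peaks: filled points are wide peaks, blue with and grey without a bloto peak, open points are peaks under 350 bp, and the dashed line marks 350 bp. Folds are higher at greater widths (rho 0.46 among wide peaks), the 2 highest at 698 bp, while the widest peak, at 1549 bp, has a fold of 6.73.

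Of the 246 wide peaks, 152 overlapped a bloto peak by at least 1 bp, which is 61.8% (exact 95% interval 55.4% to 67.9%), against 26.2% over all WT peaks. The narrower peaks overlapped one in 14 of 388 cases, 3.61% (1.99% to 5.98%). The share depended on how much overlap was asked for. With the WT summit inside a bloto peak it was 148 wide peaks, 60.2% (25.2% of all WT peaks), with summits at most 100 bp apart 142, 57.7% (24.3% of all WT peaks), and with reciprocal overlap of at least 50% it fell to 95, 38.6% (16.6% of all WT peaks). Seen from the other list, 98.9% of the 174 bloto peaks had a WT counterpart. All 85 bloto peaks of 350 bp or more lay at a wide WT peak. So did most bloto peaks under 350 bp, since few bloto peaks lay anywhere else.

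Within the wide peaks the share was higher above 600 bp than below 500 bp, though not in step with width. It was 9 of 31 at 350 to 399 bp, 29.03% (exact interval 14.2% to 48.0%), 11 of 27 at 400 to 449 bp, 40.7% (22.4% to 61.2%), 12 of 34 at 450 to 499 bp, 35.3% (19.7% to 53.5%), and 28 of 45 at 500 to 599 bp, 62.2% (46.5% to 76.2%). It was 38 of 45 at 600 to 699 bp, 84.4% (70.5% to 93.5%), 23 of 29 at 700 to 799 bp, 79.3% (60.3% to 92.0%), 21 of 25 at 800 to 999 bp, 84% (63.9% to 95.5%), and 10 of 10 from 1000 bp (69.2% to 100%). Neighbouring classes overlap in their intervals. Height moved with width. The wide peaks with a bloto peak had a median fold of 13.5 and 61.5 reads at the WT summit, and the 94 without one 7.43 and 29.5 reads.

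The share was then compared at like numbers of summit reads, and the intervals of wide and narrower peaks separated in 1 of the classes, that of 30 to 39 reads. At 30 to 39 WT reads, 19 of 51 wide peaks had one, 37.3% (exact interval 24.1% to 51.9%), against 4 of 54 narrower peaks, 7.41% (2.06% to 17.9%), with medians of 34 and 32 reads. With summits at most 100 bp apart the values were 14 of 51, 27.5% (15.9% to 41.7%), and 3 of 54, 5.56% (1.16% to 15.4%). At 20 to 29 reads the shares were 4 of 49, 8.16% (2.27% to 19.6%), and 3 of 189, 1.59% (0.329% to 4.57%), and at 40 to 49 reads 21 of 35, 60% (42.1% to 76.1%), and 2 of 9, 22.2% (2.81% to 60.01%). Those intervals overlap. From 60 reads on, 87 of 87 wide peaks had a bloto peak, and only 2 narrower peaks reached that height, both with one. In the highest quartile of WT fold, from 9.47, 120 of 140 wide peaks had a bloto peak, 85.7% (78.8% to 91.1%), and 5 of 22 narrower ones, 22.7% (7.82% to 45.4%), but there the median reads differed too, 62 against 33.5.

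**Figure D4:**
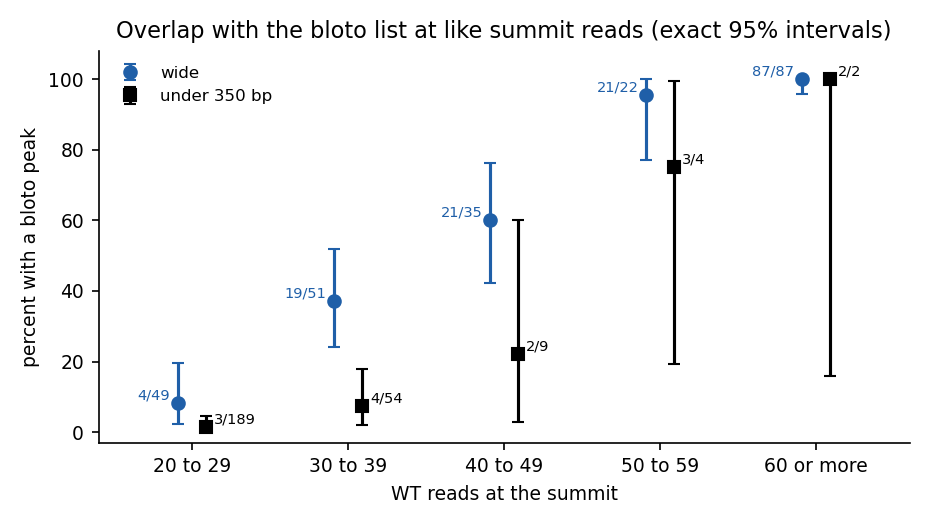
Percent of WT peaks that overlap a bloto peak by at least 1 bp (y axis) by number of WT reads at the summit (x axis), for wide WT peaks (circles) and those under 350 bp (squares), with exact 95% intervals and the counts beside the points. At 30 to 39 reads the wide peaks are at 37.3% and the narrower at 7.41%, with intervals that do not meet.

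Wide sites without a bloto peak could be long. The widest of the 94 was chr3:33137884-33138858 (975 bp, fold 6.54, 37 reads), followed by chr12:56498148-56499072 (925 bp, fold 10.5, 48 reads) and chr4:113557668-113558571 (904 bp, fold 11.0, 38 reads). Next were chr12:6560573-6561425 (853 bp, fold 11.6, 48 reads) and chr16:90038483-90039258 (776 bp, fold 10.7, 49 reads). None of the wide peaks without a bloto peak exceeded 50 reads at the summit. They were also less even: the longer flank was a median of 2.10 times the shorter (1.85 to 2.44), against 1.45 (1.38 to 1.56) at the wide peaks with a bloto peak. At 30 to 39 reads these medians were 1.97 (32 peaks, 1.599 to 2.21) and 1.71 (19 peaks, 1.38 to 2.19), and at 40 to 49 reads 1.75 (14 peaks, 1.35 to 3.07) and 1.43 (21 peaks, 1.21 to 1.64), with overlapping intervals. Over all reads, peaks under 350 bp had medians of 1.68 (374 peaks, 1.58 to 1.83) without a bloto peak and 1.34 (14 peaks, 1.18 to 1.49) with one. The contrast was thus not particular to the wide peaks. Absence from the bloto list means only that the authors' cutoff was not reached there. It does not show that binding was absent.

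At the 152 wide peaks with a counterpart, the bloto peak was nearly always the narrower. Its median width was 366 bp (interquartile range 274.25 to 454 bp), against 639.5 bp for WT at the same sites (538.75 to 766.75 bp). Taking the widest bloto peak where there was more than 1, the ratio of bloto to WT width had a median of 0.57 (95% order-statistic interval 0.53 to 0.63, range 0.099 to 1.17). The bloto peak was narrower in 144 of 152 cases, 94.7% (exact interval 89.9% to 97.7%), and less than 0.5 of the WT width in 57. It remained 350 bp or wider at 85 sites. Among the WT peaks under 350 bp with a counterpart, the bloto peak was the narrower in 12 of 14, 85.7% (57.2% to 98.2%). Their median ratio was 0.63 (0.50 to 0.96), so narrowing was not particular to the wide peaks. Since the wide sites were picked for a large width in the WT list, a smaller width in any second list is in part built into the choice. Picking by the other list gave the same direction: of the 85 bloto peaks of 350 bp or more, the WT peak was the wider in 77, 90.6% (82.3% to 95.8%), with a median ratio of bloto to WT width of 0.69 (0.63 to 0.74).

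From 500 bp upward, narrowing was larger at the wider sites. The median ratio was 0.66 at WT widths of 500 to 599 bp (28 sites), 0.57 at 600 to 699 bp (38 sites) and 0.56 at 700 to 799 bp (23 sites). It was 0.46 at 800 to 999 bp (21 sites) and 0.31 from 1000 bp (10 sites). Below 500 bp it had no such order, with 0.51 at 350 to 399 bp (9 sites), 0.70 at 400 to 449 bp (11 sites) and 0.54 at 450 to 499 bp (12 sites). WT width and bloto width had a rho of 0.35 over the 152 sites, and WT width and the ratio one of -0.28, which share the WT width as a term. The reads at the summit were also lower in bloto, with a median of 36.5 against 61.5 in WT. Per kb of genome, the lowest background of each list gave 9.28 ChIP reads in bloto and 8.67 in WT. The part of depth, clone or precipitation in the lower reads was not tested. Where the bloto peak was less than 0.5 of the WT width its summit had a median of 26 reads, and at the 8 sites where it was the wider, 37.

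At like summit reads, the order of the widths in the lists was not the same in every class. At 30 to 39 reads the median width was 338 bp for WT (105 peaks, interval 305 to 382 bp) and 392 bp for bloto (39 peaks, 345 to 433 bp). At 40 to 49 reads it was 490.5 bp (44 peaks, 385 to 588 bp) and 413 bp (40 peaks, 364 to 469 bp), and at 50 to 59 reads 577 bp (26 peaks, 443 to 664 bp) and 432 bp (21 peaks, 367 to 496 bp). The intervals overlap in each class, but overlap of separate intervals is not a test of a difference. Whether widths differ at equal reads was not tested. These classes cover different sites in each list. The reads are also counts before the scaling of the caller, which lowered the WT signal and left that of bloto unchanged. A class of like reads is therefore not one of like height on the scale of the caller.

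**Figure D5:**
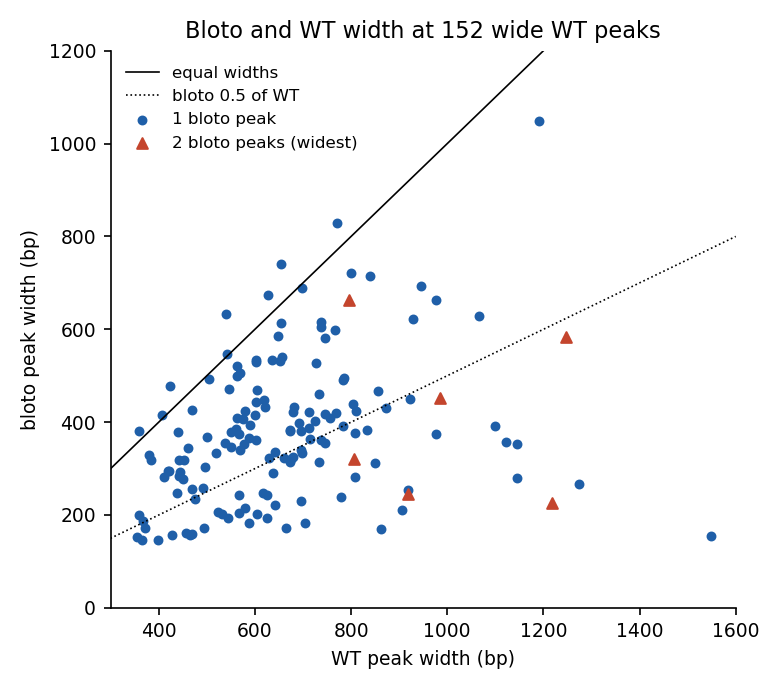
Width of the overlapping bloto peak in bp (y axis) against WT peak width in bp (x axis) at the 152 wide WT peaks with a counterpart; triangles are sites with 2 bloto peaks, of which the widest is drawn, and the lines mark equal widths (solid) and a bloto width of 0.5 of WT (dotted). Only 8 points lie above the solid line and 57 lie below the dotted one.

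The loss was taken from both ends. The bloto peak lay within the WT peak at both edges at 128 of 152 sites, 84.2% (exact interval 77.4% to 89.6%). Its lower edge lay inside that of WT at 133 sites and its upper edge at 142. A median of 171 bp was missing from the longer WT flank and 80 bp from the shorter, and the longer flank lost more at 113 sites, 74.3% (66.6% to 81.1%). The longer flank was picked in WT and had more length to lose, so this direction is largely built into the choice. Among the 14 peaks under 350 bp with a counterpart, the longer flank lost more at 11, 78.6% (49.2% to 95.3%). There the bloto peak lay inside at both edges at 9, 64.3% (35.1% to 87.2%). At the wide sites the bloto peaks covered a median of 58.7% of the WT width. The part that remained held the summit: the WT summit lay inside the bloto peak used for the width at 147 of 152 sites, 96.7% (92.5% to 98.9%), and the summits of WT and bloto were a median of 18 bp apart, at most 50 bp at 117 sites and over 100 bp at 11.

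The direction of asymmetry was kept little more often than an even split between the 2 sides would give. The longer flank was on the same side in both lists at 91 of 152 sites, 59.9% (exact interval 51.6% to 67.7%). Where the longer WT flank was at least 2 times the shorter this held for 23 of 30 sites, 76.7% (57.7% to 90.1%), and elsewhere for 68 of 122, 55.7% (46.5% to 64.7%), with overlapping intervals. The interval at the 122 sites includes an even split. Among peaks under 350 bp with a counterpart the side was the same at 10 of 14, 71.4% (41.9% to 91.6%). The median flank ratio of the bloto peaks at the 152 wide sites was 1.55 (1.42 to 1.69).

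The strongest narrowing was at the widest site. At chr11:129872276-129873824 the WT peak was 1549 bp wide with 46 summit reads, and the bloto peak 154 bp with 21 reads, a ratio of 0.099, although the fold was 6.73 in WT and 7.49 in bloto, each over its own background. At chr15:64385354-64386215 the width went from 862 to 169 bp, with 33 and 18 reads. At the other end, the bloto peak was wider than that of WT at chr17:45000168-45000706 (633 against 539 bp, with 53 and 97 reads), at chr1:205090997-205091651 (740 against 655 bp, with 45 and 58 reads) and at chr14:21924162-21924585 (478 against 424 bp, with 20 and 36 reads). So at these 3 sites the bloto summit had fewer reads over a longer stretch.

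Of the 246 wide peaks, 6 overlapped 2 bloto peaks each, 2.44%, against 0.946% over all WT peaks. No narrower peak did, but a peak under 350 bp has little room for 2, since no bloto peak was under 146 bp. At chr6:5260920-5262166 the WT summit at 5261130 lay beside the summit of the smaller bloto peak, chr6:5260964-5261212 (249 bp, 26 reads), 11 bp away, while the larger, chr6:5261369-5261952 (584 bp, 46 reads), had its summit 482 bp away. At chr17:47784667-47785884 the bloto peaks were 226 and 191 bp wide, with 41 and 16 reads, and their summits lay 14 and 268 bp from that of WT. The WT peak chr7:10979525-10980331 held bloto peaks of 320 and 158 bp, with 39 and 15 reads and summits 4 and 219 bp from that of WT. At chr11:34937331-34938248 the bloto peaks were 245 and 175 bp wide, with 37 and 18 reads at 18 and 405 bp. In these 3 the bloto peak with more reads was at the WT summit. At chr16:70557259-70558053 and chr19:3185301-3186284, neither bloto summit was near the WT summit: the distances were 212 and 435 bp at the former and 136 and 499 bp at the latter. Each WT row has a single summit, so a WT stretch that holds more than 1 site of binding appears here as 1 peak.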

How the data were processed

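The data were 3 peak lists, 1 per ChIP sample, from 6 samples (3 ChIP and 3 input). Per the submitters' processing notes, the authors worked on hg19 with MACS2, SAMtools, BWA, cutadapt 1.4.1 and CASAVA 1.8.2. Neither the cutoff of MACS2 nor the input set against each ChIP is given in the sources used here. Per the labels' protocols, fragments of 200 to 500 bp were kept and sequenced from 1 end for 50 bp. The deposited lists give for every peak its fold, which is the ratio between ChIP and local background where the summit lies. They also hold the authors' −log10 p-value and q-value, the offset of the summit, and a deposited score that equals 10 times the −log10 q-value rounded down (634 of 634 WT and 174 of 174 bloto peaks). These values of the authors served to describe or filter peaks.

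Width is end minus start, and flanks run from the summit to each edge. Gaps are edge to edge on a chromosome. Shares carry exact Clopper-Pearson 95% intervals and medians exact order-statistic 95% intervals. Both treat peaks as independent and cover counting error only. Summit reads were solved from fold and p-value by the formulas of MACS2. They came out whole within 0.01 reads in 634 of 634 WT peaks (on a scale of 0.856) and 174 of 174 bloto peaks. Depth per kb follows from the lowest background and an assumed read extension of 146 bp, the narrowest width. For the control library no depth could be derived from its single peak. The functions were tested on simulated lists. Python 3.11.15, numpy 2.4.6, pandas 2.3.3, scipy 1.17.1 and matplotlib 3.10.9 were used.

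The width rule, the lists of sites and the classes were chosen with earlier results of these data known. Sites named are the 10 widest, 3 on each side of the threshold, the 5 highest and 3 lowest in fold, the 5 most and 3 least displaced summits, the 3 smallest and the 1 largest gap, the 5 widest without a bloto peak, the 3 lowest and 3 highest width ratios, and all wide peaks with more than 1 bloto peak. The wide pairs on chromosomes 2 and 3, the neighbour of the strongest peak and the chromosome 18 site of tied fold were named after their values were seen. Gene groups and motifs were not examined, since no genome or annotation of this build was used.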

Additional observations from a re-analysis of the deposited data

How the results depend on the processing

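Of 45 alternative values, 34 stayed within the interval of the reported value, within 1.5 times for the number of peaks, or within 0.1 for the rank correlation, and 11 moved further. Only the rank correlation and the width ratio have a direction that could turn, and neither turned under any alternative. A width minimum of 500 bp left 154 peaks, with 74.0% of summits in the central part, a rank correlation of fold and width of 0.20 and 77.9% with a bloto peak, and 300 bp gave 52.5% with a bloto peak. Over all WT peaks the rank correlation of fold and width was 0.61. Summits within 50 bp of the midpoint made up 37.4%, and those in the central 0.25 to 0.75 of the width 83.7%, which follows from the size of the window. The nearest other wide peak lay a median of 2478 kb away. Reciprocal overlap of at least 50% gave 38.6% with a bloto peak and a width ratio of 0.70, which it favours by construction, since a bloto peak much narrower than the WT peak cannot pass. The cause of the other moves was not tested. No paired analysis was possible because there are no replicates (1 library in each condition), so leaving one out could not be tried either.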
